A study of Caenorhabditis elegans with 2 samples.

Results

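The actin, myosin and thin filament genes are 10 genes chosen by name: unc-54, myo-3, unc-15, act-1, act-2, act-3, act-4, lev-11, mlc-1 and mlc-2. All 10 were found by their Ensembl names among the 19973 protein-coding genes of the WBcel235 annotation. They were looked at for binding of T26A5.8, a Caenorhabditis elegans protein tagged at its C-terminus with green fluorescent protein and FLAG, by chromatin immunoprecipitation sequencing (ChIP-seq) using an anti-GFP antibody. The worms were whole young adults of both sexes, 63 h past synchronization as starved L1 larvae. The strain was OP598, which carries the allele unc-119(tm4063) and the integrated transgene wgIs598. There was 1 group, with biological replicates 3 and 4, and no second condition, so no test between conditions was possible. The labels do not say in which cells the transgene is expressed, and all cell types of the worm were pooled, so an entry cannot be assigned to muscle.

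Muscle contracts when thick filaments of myosin pull on thin filaments of actin. In body wall muscle of C. elegans, unc-54 encodes the major myosin heavy chain, myo-3 a second heavy chain at the centre of the thick filament, and unc-15 paramyosin, which forms the filament core. The light chains of mlc-1 and mlc-2 bind the neck of the myosin head. The act genes encode actin, and lev-11 encodes tropomyosin, which lies along the thin filament. These genes are transcribed strongly in somatic tissue.

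The data are lists of regions on build ce11. The thresholded list of 369 entries is the authors' optimal list by irreproducible discovery rate (IDR). Which comparison of replicates or pooled reads it came from is not stated in the sources used here. There are also 3 lists of 30000 entries each, for the pooled alignments, replicate 3 and replicate 4. The long lists include background regions by design, so that presence in them is not by itself a binding site. Each entry has a summit and a signal, an enrichment value from the authors' peak caller. Its scaling is not stated, so ranks within a list are given beside it (rank 1 is the strongest), and signals of different lists are not compared. An entry belonged to a gene when its summit lay from 1000 bp upstream of the gene start to 500 bp past the gene end. Within that window it was placed at the start (up to 200 bp inside the gene), at the end (from 200 bp before the gene end) or in the body between them.

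Of the 10 genes, 1 held a thresholded entry, act-2. Among all protein-coding genes, 2.36% held one (472 of 19973). The share of 1 in 10 has an exact 95% binomial interval of 0.253 to 44.5%, which includes that background, so the count says nothing particular about these genes. The act-2 entry was past the end of the gene, where 0.891% of all protein-coding genes held one. In the end class, which begins 200 bp inside the gene, the share was 0.996%. No thresholded entry lay at the start or in the body of any of the 10, where 0.806% and 0.641% of all protein-coding genes held one. A count of 0 in 10 allows a share of up to 30.9% by the same interval. The lists give no read counts, so the depth behind these counts is unknown.

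The sequences at 3 entries of the actin genes are shown: the entry at act-2, the strongest entry at act-4, which was strong in 1 replicate, and the strongest entry at act-1. They were read from the RefSeq genome of assembly WBcel235 on the strand of the gene, 5′ to 3′, and the capitals mark the 21 bases centred on the summit of the pooled entry.
act-2, chrV:11076463-11076584, reverse strand: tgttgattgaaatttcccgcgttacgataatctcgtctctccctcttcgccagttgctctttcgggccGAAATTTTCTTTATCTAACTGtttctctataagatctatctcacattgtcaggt
act-4, chrX:4961132-4961232, forward strand: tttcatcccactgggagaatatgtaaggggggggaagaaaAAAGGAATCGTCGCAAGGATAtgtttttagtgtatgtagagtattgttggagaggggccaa
act-1, chrV:11080350-11080450, forward strand: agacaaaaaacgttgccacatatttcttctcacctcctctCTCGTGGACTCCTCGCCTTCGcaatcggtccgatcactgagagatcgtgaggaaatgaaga
The act-2 stretch is the whole pooled entry of 122 bp, and the others are the 101 bp around the summit.

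The actin genes act-3, act-2 and act-1 form a cluster on chromosome V. act-2 (WBGene00000064, 11076777 to 11078154, reverse strand) has 2278 bp between it and act-3 and 2897 bp between it and act-1. Its thresholded entry spanned 11076326 to 11076685, with a signal of 122.9 and rank 108 of 369. The summit at 11076506 lay 271 bp past the end of act-2, in the sequence between act-2 and act-3. This position was also inside the non-coding RNA gene T04C12.14 (11076485 to 11076666, reverse strand), 21 bp before that gene's end, and no other annotated gene came within 500 bp. The nearest tRNA, snoRNA or snRNA gene lay 98.3 kb away. The entry therefore stands at the end of an actin gene and in the body of a non-coding gene, and the lists cannot tell these apart.

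The act-2 entry was strong in both replicates. In replicate 3 its signal was 56.5 (rank 231), with the summit 276 bp past the gene end. In replicate 4 its signal was 60.9 (rank 94), with the summit at 233 bp. In the pooled list its signal was 116.9 and its rank 114. By the strongest pooled entry, 156 of the 19973 protein-coding genes (0.781%) were at least as strong as act-2. With a window that ends 200 bp past the gene end, an alternative chosen after seeing the data, the act-2 entry falls outside, and none of the 10 genes then held a thresholded entry, against 1.96% of protein-coding genes.

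Elsewhere at act-2 the signal was low. The pooled entry in its coding exon, 531 bp from the start, had a signal of 29.3 (rank 11708) and was found in replicate 4 (22.1, rank 4302) and not in replicate 3. The entry 323 bp upstream of the start had a pooled signal of 24.1 (rank 19283). Its summit lay beside 4 non-coding genes, T04C12.18, T04C12.23, T04C12.24 and T04C12.28. In replicate 3, entries with signals of 20.2 (rank 9239) and 14.65 (rank 21559) overlapped this upstream entry. Replicate 4 had no entry overlapping it.

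**Figure D1:**
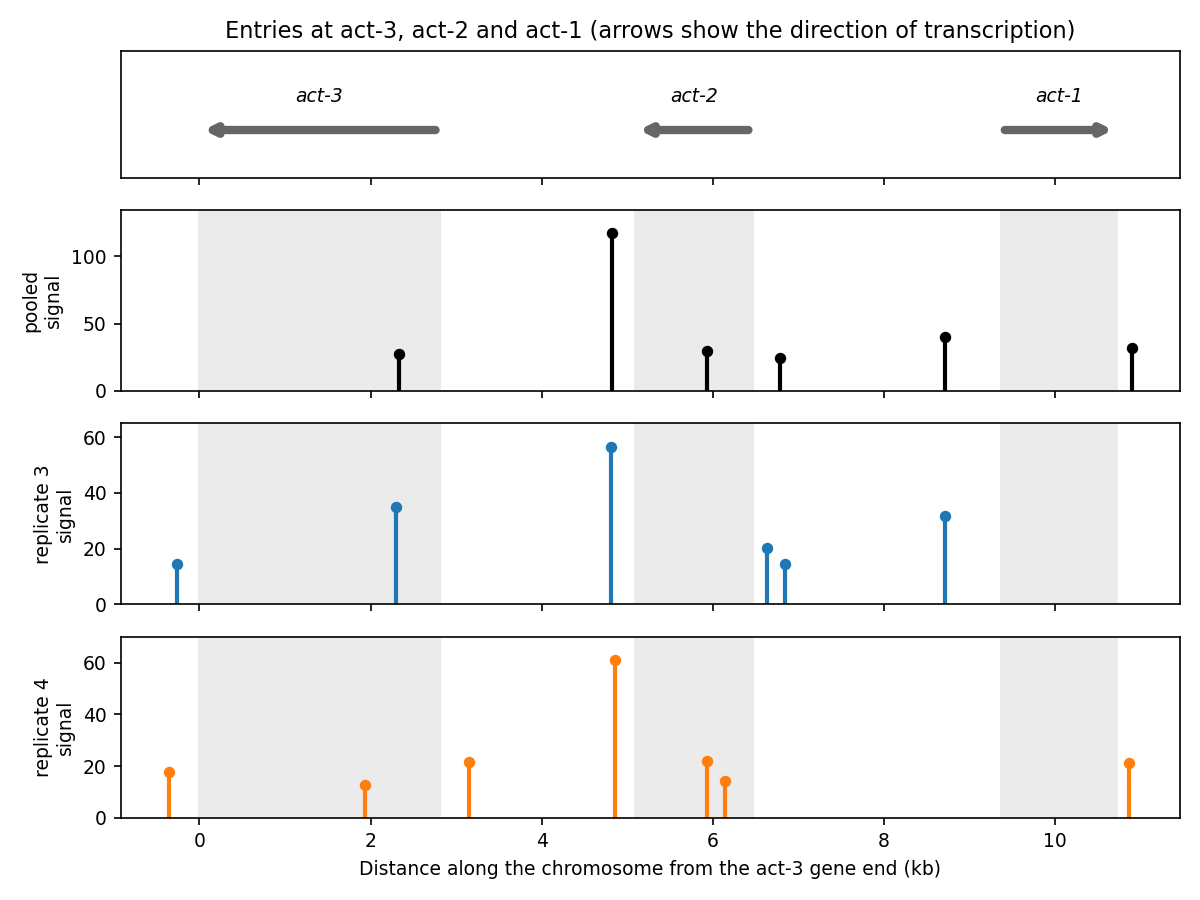
Signal of every entry assigned to act-3, act-2 and act-1 in the pooled list and in each replicate list (y axes, the authors' values, a separate scale for each list), against distance along the chromosome in kb from the act-3 gene end; grey bands are the genes and each stem is 1 summit. The tallest stem of every list is the entry past the end of act-2 (116.9 pooled, 56.5 and 60.9 in replicates 3 and 4).

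act-1 (WBGene00000063, chromosome V, 11081052 to 11082415, forward strand) had 2 pooled entries, on either side of the gene and none inside it. The stronger lay 652 bp upstream of the start, with a signal of 39.96 (rank 4143), inside the non-coding gene T04C12.25 and 5 bp past the end of T04C12.16. Replicate 3 had this entry, with a signal of 31.6 (rank 1725), and replicate 4 did not. The other lay 168 bp past the gene end, 21 bp past the end of T04C12.29, with a pooled signal of 31.6 (rank 9430). Replicate 4 had an entry there (21.4, rank 4861) and replicate 3 did not. The replicates thus each held 1 entry at act-1, at opposite ends of the gene.

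act-3 (WBGene00000065, chromosome V, 11071690 to 11074498, reverse strand) had 1 pooled entry, in an intron 474 bp from the start, with a signal of 27.2 (rank 14463). In replicate 3 the overlapping entry had a signal of 35.0 and rank 1172. Replicate 4 had no entry overlapping it. Its strongest at act-3 lay 342 bp upstream of the start, with a signal of 21.6 (rank 4651).

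act-4 (WBGene00000066, chromosome X, 4960621 to 4964413, forward strand) lies apart from the cluster and ranked second of the 10 genes in the pooled list. Its strongest pooled entry, in an intron 561 bp from the start, had a signal of 66.1 (rank 714). In replicate 3 the entry had a signal of 51.4 and rank 315, within the strongest 369 of that list. In replicate 4 it had a signal of 16.5 and rank 11625, so the entry was strong in 1 replicate only. Further pooled entries lay in an intron 1217 bp from the start (46.3, rank 2377) and 164 bp upstream of the start (43.2, rank 3094). The upstream entry was the strongest of replicate 4 at this gene (27.7, rank 1725), and replicate 3 had none upstream of the start.

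The actin genes share coding sequence, which affects where reads can be placed. The coding sequences of act-1 and act-3 were identical over 1128 bp. Those of act-2 and act-4 differed from them by 43 and 66 bp. All 31-base stretches within the coding exons of act-1 and act-3 occurred elsewhere in the genome, against 46.5% for act-2 and 23.9% for act-4. No pooled summit lay in a coding exon of act-1, act-3 or act-4. How reads with several matches were treated is not given in the sources used here, so the part of shared sequence in these low values was not tested. The strongest pooled entries of the 4 actin genes held no repeated 31-base stretch, nor did the 360 bp of the thresholded entry at act-2.

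lev-11 (WBGene00002978, chromosome I, 14621169 to 14631094, reverse strand) had 8 pooled entries, the most of the 10 genes, none of them upstream of the gene start. It is also the longest of the 10, at 9926 bp. The annotation gives it 20 transcripts with 11 starts. The strongest entry lay at 14624027 to 14624386, in an intron 6887 bp from the gene start, with a pooled signal of 60.1 (rank 983). Its signal was 39.3 in replicate 3 (rank 775) and 23.6 in replicate 4 (rank 3343). This summit lay 73 bp upstream of an annotated internal transcript start, so by transcripts it is an entry at a start and by the whole gene an entry in the body. The second pooled entry, 2979 bp from the gene start, had a signal of 39.3 (rank 4417), and the third, at 5302 bp, had 34.5 (rank 7045). The third was the strongest of replicate 4 at lev-11 (28.0, rank 1666). In replicate 3 an entry with a signal of 17.2 (rank 14698) overlapped it in part, and no summit lay within 200 bp of its summit.

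Of the thick filament genes, the strongest entry in the pooled list and in replicate 3 was at myo-3 (WBGene00003515, chromosome V, 12226817 to 12234343, reverse strand). It lay in a coding exon, 4878 bp from the start, with a pooled signal of 46.8 (rank 2284). Its signal was 33.9 in replicate 3 (rank 1332) and 21.6 in replicate 4 (rank 4628). The strongest of replicate 4 at myo-3 lay elsewhere in a coding exon, 1808 bp from the start (21.97, rank 4381), and mlc-1, mlc-2 and unc-15 ranked above myo-3 in that list. The pooled entries at the start of myo-3 were weaker, with signals of 30.9 (rank 10102, 615 bp upstream) and 27.04 (rank 14650, 17 bp inside the gene, in the 5′ UTR). Replicate 3 had the first of these and replicate 4 the second.

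unc-54 (WBGene00006789, chromosome I, 14855901 to 14863482, reverse strand) had 6 pooled entries. The strongest lay 109 bp upstream of the start, with a signal of 40.1 (rank 4112). In replicate 3 it had a signal of 25.5 (rank 4036), and in replicate 4 it had 12.5 (rank 23295), so that 4 of its 6 entries there were stronger. The strongest entry of replicate 4 lay in a coding exon, 3633 bp from the start (19.98, rank 6220). Of the 5 other pooled entries at unc-54, 4 were in coding exons and 1 in an intron, with signals from 22.1 to 30.8.

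unc-15 (WBGene00006754, chromosome I, 7376604 to 7383197, reverse strand) had 5 pooled entries, and the 2 strongest flanked its start. The first lay 158 bp upstream, with a signal of 39.6 (rank 4245), and the second 58 bp inside the gene, in the 5′ UTR, with 33.3 (rank 7878). Near the start, replicate 3 had an entry with a signal of 21.0 (rank 8162) and replicate 4 one with 19.1 (rank 7227) and another with 14.1 (rank 17836). Replicate 4 had a stronger entry in a coding exon, 4263 bp from the start (22.01, rank 4358).

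The light chain genes had the weakest pooled entries apart from act-3. They lie 2623 bp apart on chromosome X and are transcribed away from each other. At mlc-1 (WBGene00003369, 17459210 to 17460778, forward strand) the strongest pooled entry was in the 3′ UTR, 434 bp before the gene end, with a signal of 37.7 (rank 5169), 22.01 in replicate 3 (rank 6906) and 17.8 in replicate 4 (rank 9157). This summit also lay 434 bp past the end of slc-17.1, a gene of the solute carrier class on the other strand. Replicate 4 had a stronger entry 430 bp past the end of mlc-1 (27.5, rank 1782), where the pooled entry had a signal of 25.1 (rank 17600) and lay in the body of slc-17.1. At mlc-2 (WBGene00003370, 17455792 to 17456586, reverse strand) the only pooled entry lay in a coding exon 409 bp from the start, with a signal of 25.2 (rank 17417). This summit was also 309 bp past the end of the protein-coding gene C36E6.2. The entry had a signal of 22.9 in replicate 4 (rank 3748), and replicate 3 had no entry there. The coding sequences of mlc-1 and mlc-2 were identical at 493 of 510 bp, and 26.7% of the 31-base stretches of the mlc-2 entry occurred elsewhere in the genome.

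**Figure D2:**
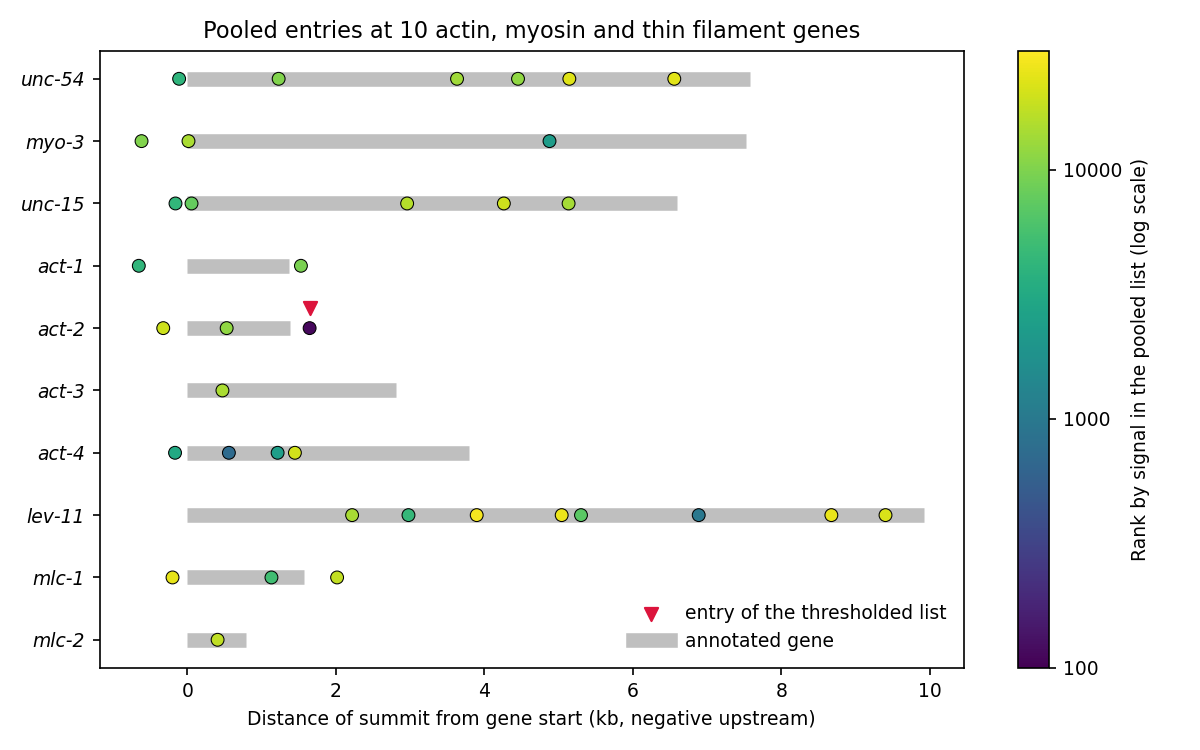
Position of each pooled summit in kb from the gene start (x axis, negative upstream) at the 10 genes (y axis), with grey bars for the annotated genes and colour for the rank in the pooled list on a log scale, dark being strong; the red triangle is the thresholded entry. The only rank within the strongest 369 is past the end of act-2, and lev-11 has 8 summits against 1 each at act-3 and mlc-2.

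All 10 genes held at least 1 pooled entry (exact 95% interval 69.2 to 100%), as did 65.8% of all protein-coding genes. These were 36 entries, 0.617 per kb of window against 0.352 over all protein-coding genes, where genes with overlapping windows count an entry more than once. The median length of the 10 genes was 3301 bp, against 2027 bp for all protein-coding genes. Of the 36, 9 lay at the starts of 7 genes, 24 in the bodies of 9 genes and 3 at the ends of 3 genes, and 10 had their summit in a coding exon. Over all protein-coding genes, 32.7% held a pooled entry at the start, 45.5% in the body and 27.1% at the end. The exact 95% intervals were 34.8 to 93.3% for 7 of 10 genes at the start, 55.5 to 99.7% for 9 of 10 in the body and 6.67 to 65.2% for 3 of 10 at the end. The first 2 intervals lie above their backgrounds, as does that for any pooled entry. The 10 genes are longer by median and were chosen with earlier results known, so these intervals are no test of enrichment. The 64 further muscle and actin genes described below also had shares above these backgrounds. The strongest pooled entry of a gene was at the start for 3 genes, in the body for 6 and at the end for 1. Over the 13147 protein-coding genes with a pooled entry, these shares were 28.5, 47.1 and 24.4%.

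The order of the 10 genes by strongest pooled signal was act-2 (116.9), act-4 (66.1), lev-11 (60.1), myo-3 (46.8), unc-54 (40.1), act-1 (39.96), unc-15 (39.6), mlc-1 (37.7), act-3 (27.2) and mlc-2 (25.2). The median of their ranks was 4127.5, against 8470 over all protein-coding genes with a pooled entry. Longer windows hold more entries, and the part of length in these counts and ranks was not tested. Among the strongest 369 pooled entries, 1 of the 10 genes had one, act-2, against 2.28% of protein-coding genes. In the replicate lists this count was 2 in replicate 3, act-2 and act-4 (background 2.31%), and 1 in replicate 4, act-2 (background 2.41%). Among the strongest 1000 pooled entries, 3 of the 10 genes had one (30%, exact 95% interval 6.67 to 65.2%), against 6.13% of protein-coding genes. The corresponding count was 3 in replicate 3 (background 5.96%) and 1 in replicate 4 (background 6.06%, within the interval of 0.253 to 44.5%). It was act-2, act-4 and lev-11 in replicate 3 and act-2 in replicate 4. The 10 genes were chosen with earlier results known, and their windows are longer (median 4801 bp against 3527 bp over all protein-coding genes). Whether they hold strong entries more often than other genes was therefore not tested.

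**Figure D3:**
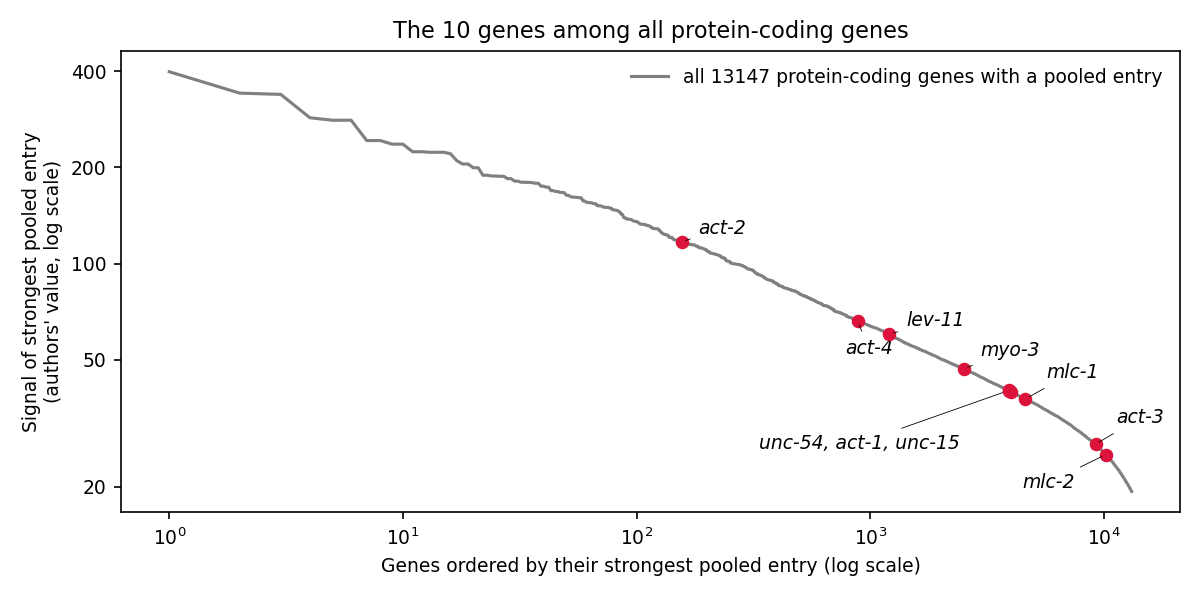
Signal of the strongest pooled entry (y axis, the authors' value, log scale) of the 13147 protein-coding genes with a pooled entry, in descending order (x axis, log scale), with the 10 genes as red points. act-2 stands at 116.9, apart from the other 9, which range from 25.2 to 66.1.

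The replicates differed in which entry was strongest at a gene. The strongest entries of replicates 3 and 4 overlapped at 1 of the 10 genes, act-2. Over the 11014 protein-coding genes with entries in both replicate lists, they overlapped at 39.0%, and the exact 95% interval for 1 of 10 (0.253 to 44.5%) includes that value. Followed from the pooled list, the strongest entry was found by overlap in both replicates at 7 genes, in replicate 3 alone at act-1 and act-3, and in replicate 4 alone at mlc-2. By rank, replicate 3 placed act-3 at 1172 and mlc-1 at 6906, and replicate 4 placed them at 4651 and 1782. The order below act-2 differed between the replicates: act-2 was first in both, and act-4 followed it in replicate 3 and lev-11 in replicate 4.

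**Figure D4:**
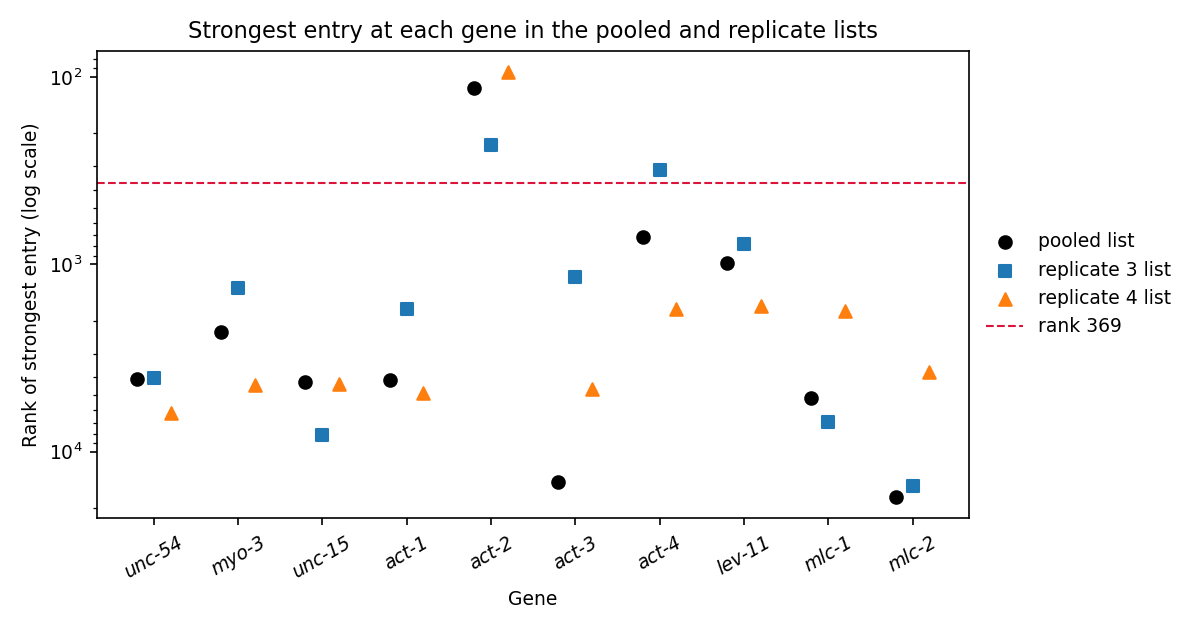
Rank of the strongest entry at each of the 10 genes (x axis) in the pooled list and in each replicate list (y axis, log scale, strong at the top); the dashed line is at rank 369, the length of the thresholded list. act-2 is above the line in every list (114, 231 and 94), and act-4 only in replicate 3 (315).

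A further 64 genes of muscle and of actin and myosin function were examined as the wider pathway, and 2 held a thresholded entry (3.12%, exact 95% interval 0.381 to 10.8%, against 2.36% of protein-coding genes). Both entries lay past gene ends, as at act-2. At unc-45, which encodes the chaperone that folds myosin, the entry on chromosome III, 502592 to 502951, had a signal of 148.6 (rank 58), with 87.8 in replicate 3 (rank 47) and 61.9 in replicate 4 (rank 86). Its summit was 147 bp past the end of unc-45 and also 32 bp upstream of the snoRNA gene F30H5.4. At pat-4, which encodes integrin-linked kinase of the muscle attachments, the entry at 89134 to 89493 on the same chromosome had a signal of 101.4 (rank 219), with 53.3 in replicate 3 (rank 270) and 49.7 in replicate 4 (rank 197). Its summit was 139 bp past the end of pat-4 and 71 bp past the end of mrpl-40, a gene for a mitochondrial ribosomal protein that faces it from the other strand. F30H5.4 and mrpl-40 were chosen for naming after their values had been seen.

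Of all 472 protein-coding genes with a thresholded entry, the strongest such entry was at the end for 41.3%, at the start for 32.8% and in the body for 25.8%. Its summit was past the gene end for 36.7%, inside the gene for 36.4% and upstream of the start for 26.9%. At none of the 3 can the entry be given to the muscle gene alone, since T04C12.14, F30H5.4 and mrpl-40 lie within 71 bp of the summits.

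By pooled signal the next of the 64 genes were unc-70, which encodes beta-spectrin, and mlc-5, a myosin light chain gene. The pooled unc-70 entry had a signal of 76.1 (rank 473). Its summit lay in an intron of unc-70, inside the non-coding gene K11C4.7 and 48 bp upstream of the snoRNA gene K11C4.6. The strongest entry at unc-70 in replicate 3 had 56.1 (rank 234), also in an intron. That of replicate 4 had 23.5 (rank 3354), with its summit in a coding exon. The mlc-5 entry had a signal of 55.3 (rank 1260), with 25.2 in replicate 3 (rank 4205) and 33.4 in replicate 4 (rank 814). It lay 208 bp past the end of mlc-5 and 102 bp inside the next gene, taf-9, which encodes a subunit of the general transcription factor TFIID. K11C4.7, K11C4.6 and taf-9 were also named outside the planned naming rule. By role, a grouping made after the values were seen, none of 10 troponin genes, which make the calcium switch of the thin filament, held a thresholded entry, and their best pooled rank was 5144. None of 8 further myosin chain genes and none of 16 genes of actin assembly held one, with best pooled ranks of 1260 and 1283. The remaining roles were attachment structures, with 1 of 15 genes (pat-4), giant sarcomere proteins, with 0 of 3, and the rest, with 1 of 12 (unc-45). The exact 95% intervals of all these shares include the background of 2.36%, and the upper limits for 0 of 10, 0 of 8 and 0 of 16 were 30.9, 36.9 and 20.6%, so groups of this size cannot be told from all genes. Over the 64 genes the median of the best pooled ranks was 6218, for the 57 with a pooled entry. Those 57 were 89.1% of the 64. A pooled entry lay at the start of 42.2% of the 64, in the body of 70.3% and at the end of 40.6%. Their windows held 0.431 pooled entries per kb, with a median window of 5723 bp. Each of these shares and this density were also above those over all protein-coding genes.

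Within 50 bp of the summits of the strongest pooled entries, G and C made up 39.6% of the bases at act-2, the lowest of the 10 genes, and 64.4% at unc-54, the highest. The median of the 10 was 47.0%, against 42.6% over all pooled entries and 47.5% over the thresholded list.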

How the data were processed

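The labels and the files' notes give how the lists were made. Peaks were listed together with background for each replicate, and once more for both alignments pooled, with a control alignment. From these the authors derived an optimal list thresholded by irreproducible discovery rate (IDR). No source used here names the aligner or caller. The deposited signal is the authors' enrichment value per region. The deposited −log10 q-value (1.93 to 2.40 in the thresholded list) was not used to choose or rank entries. For the strongest pooled entry of a gene it was 2.53 at act-2, 2.2 at act-4 and 1.971 at lev-11. At the others of the 10 genes it ran from 0.224 at mlc-2 to 1.117 at myo-3, below the range of the thresholded list.

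Coordinates are on ce11 and 1-based. All entries ended within the chromosomes of WBcel235. Lists deposited on ce10 were not used. The thresholded list on ce10 is longer than that on ce11, and counts from it were not analysed here. Genes came from Ensembl release 115 (6 nuclear chromosomes), and sequence from the RefSeq assembly WBcel235. Entries were placed and counted with Python 3.11.15, pandas 2.3.3 and scipy 1.17.1. Intervals are exact Clopper-Pearson 95% intervals and cover the counting of genes only. No test between groups was run. The 10 genes, the 64 further genes and the naming rule were chosen with earlier results of these data known. Named were the 10 genes, those of the 64 with a thresholded entry, the 4 of the 64 with the strongest pooled entry, and genes within 500 bp of a named summit at the 10 genes. Neighbours at the 64 further genes were named outside this rule. Alternatives were 2 other windows, overlap in place of summits, the stronger 184 thresholded entries, each replicate alone and transcript ends. Repeated 31-base stretches were counted after the data had been seen.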

Additional observations from a re-analysis of the deposited data

How the results depend on the processing

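Without replicate 4 (the strongest 369 entries of replicate 3 alone) 2 of the 10 genes held an entry, act-2 and act-4. Without replicate 3 only act-2 did, so the range was 1 to 2. Leaving out a replicate is the same calculation for the thresholded entries and for the strongest 369 of the pooled list. It repeats the replicate counts given above and is no separate check of either. With the narrower window (500 bp upstream to 200 bp past the end) both counts were 0. With the upstream part kept and only the end moved to 200 bp, chosen after seeing the data, the first was 0 and the background 1.96%. With the wider window (2000 to 1000 bp) and with any overlap of at least 1 bp they stayed at 1, act-2. In the 184 strongest thresholded entries act-2 remained, and of the 64 further genes 1 (unc-45) instead of 2. For those 64 the range without either replicate was 2 to 3. The background share was 1.72% with the narrower window, 2.96% with the wider and 1.2% in the stronger 184. Without replicate 3 and without replicate 4 it was 2.41 and 2.31%. By transcript ends, the strongest entry was at a start for 4 genes, in the body for 5 and at the end for 1, the change being lev-11. No paired analysis was possible because there is 1 group. Read depth is unknown, and the lists cannot show binding below their lowest entries.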
